A study of Mus musculus with 13 samples.

Results

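The 9 genes described here encode transcription factors that set up and maintain the identity of hepatocytes: *Hnf4a*, *Foxa1*, *Foxa2*, *Foxa3*, *Cebpa*, *Cebpb*, *Prox1*, *Nr5a2* and *Onecut1*. They were chosen by name and found by gene symbol in the count and FPKM tables, where they are 9 of 27141 listed genes. All 9 passed the filter on low counts and so belong to the 19884 genes that were tested. The sequenced RNA came from cultures of damaged hepatocytes (dHeps), isolated by collagenase perfusion from mice whose livers had been injured with carbon tetrachloride (CCl4), labelled wild type and, per the study, of C57BL/6 background. Every group shared this injury and 16 days of culture in a serum-free hepatocyte maintenance medium. The groups differed only in what was added, which was the solvent DMSO, the cocktail 5C, or 5C with a single compound removed. Of the 5 compounds in the cocktail, G is GSK429286A, which inhibits ROCK, C is CID755673, an inhibitor of protein kinase D, E is ETC-1002, which activates AMPK, F is forskolin, an adenylate cyclase activator that raises cAMP, and S is Salidroside. A group named 5C-G thus received the cocktail without GSK429286A, and the other removals are named in the same way. Each group had 2 libraries, called A and B here, except that 5C-S had 1. The study's methods take n throughout as separate biological replicates and describe the RNA-seq experiments as pooled, while the labels do not name the mice or cultures behind each library. The p-values below measure the spread between these libraries. Where a library is left out, its group keeps 1 library, which is assumed to vary like the other groups, and the test has fewer libraries. Hepatocytes from uninjured livers are not analysed here.

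HNF4α is a nuclear receptor that binds the control regions of a large share of hepatocyte genes, among them apolipoproteins and clotting factors. The FOXA proteins open compacted chromatin so that other factors can bind, the C/EBP proteins are leucine zipper factors that drive metabolic genes (C/EBPα) and the acute phase response (C/EBPβ), PROX1 is a homeobox factor that restrains and refines the hepatocyte program, NR5A2 (LRH-1) is a nuclear receptor of bile acid and cholesterol genes, and ONECUT1 (HNF6) acts in liver development and in biliary cells. These factors bind to each other's control regions and form a network in which each member helps to maintain the rest. Several of them are not confined to hepatocytes: C/EBPα and C/EBPβ are also present in macrophages, and FOXA1, FOXA2, NR5A2 and ONECUT1 in epithelia outside the hepatocyte lineage.

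Because the 9 genes were compared with respect to compounds that include an activator of cAMP production, and because the factors bind each other's promoters, the 250 bases before the annotated start of each gene were searched on both strands for short motifs in the GRCm39 genome with GENCODE vM39 starts. The motifs given here are those of FOXA (TGTTTAC), HNF4 (CAAAGTCCA), ONECUT (ATTGAT), C/EBP (TTGCNNAA) and NR5A2 (CAAGGTCA), the full cAMP response element (TGACGTCA) and its 5-base core (TGACG), which overlaps the full element wherever that occurs. Matches were found at 4 of the 9 genes, and these 4 promoters are shown on the strand of the gene, 5′ to 3′, with the matches in capitals.
Foxa1, chr12:57592945-57593194: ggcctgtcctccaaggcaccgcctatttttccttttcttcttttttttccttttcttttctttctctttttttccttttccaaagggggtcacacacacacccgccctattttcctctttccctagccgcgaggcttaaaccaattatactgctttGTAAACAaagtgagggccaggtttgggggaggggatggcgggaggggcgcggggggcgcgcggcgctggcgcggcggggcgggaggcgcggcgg
Foxa2, chr2:147889006-147889255: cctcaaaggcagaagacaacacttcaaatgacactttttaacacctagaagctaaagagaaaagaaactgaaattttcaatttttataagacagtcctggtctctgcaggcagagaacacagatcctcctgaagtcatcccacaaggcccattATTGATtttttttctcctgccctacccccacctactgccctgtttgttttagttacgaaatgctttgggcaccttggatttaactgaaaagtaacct
Cebpb, chr2:167530585-167530834: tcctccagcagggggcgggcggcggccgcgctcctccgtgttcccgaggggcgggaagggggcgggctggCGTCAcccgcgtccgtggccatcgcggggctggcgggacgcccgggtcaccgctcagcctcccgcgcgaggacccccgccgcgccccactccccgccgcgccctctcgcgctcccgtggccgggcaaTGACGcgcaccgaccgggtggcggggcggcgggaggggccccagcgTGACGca
Onecut1, chr9:74768868-74769117: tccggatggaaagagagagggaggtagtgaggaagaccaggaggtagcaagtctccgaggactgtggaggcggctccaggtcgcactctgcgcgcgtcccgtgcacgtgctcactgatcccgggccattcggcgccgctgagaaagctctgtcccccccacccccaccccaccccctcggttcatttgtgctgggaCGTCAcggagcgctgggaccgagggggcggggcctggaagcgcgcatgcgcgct
The capitals in *Foxa1* mark the FOXA motif, read on the opposite strand, at 94 to 88 bases before the start, a motif that 2.72% of 21770 promoters of the same length hold. Those in *Foxa2* mark the ONECUT motif at 97 to 92 bases before the start, held by 6.52% of promoters. Those in *Cebpb* mark 3 matches to the core of the cAMP response element, which end 176, 49 and 3 bases before the start, and those in *Onecut1* mark a single match that ends at 50 bases. This core is held by 18% of promoters, the full element by 1.69%, and none of the 9 promoters has the full element. The HNF4, C/EBP and NR5A2 motifs, held by 0.372%, 9.34% and 1.37% of promoters, had no match in these windows of the 9 genes. A match is a string of letters and says nothing on binding in these cells.

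Total counts per library ran from 30195867 to 45491932. Libraries of a group differed by more than counting noise in all 6 pairs, with a chi-square per degree of freedom between 8.01 (DMSO) and 86.6 (5C-G). Each of 8 hepatocyte markers was detected in all 13 libraries. Their summed level was 15663 to 17002 FPKM in DMSO and 15963 to 15974 FPKM in 5C, and lay between 6294 FPKM (5C-E B) and 28378 FPKM (5C-F A) in the other libraries. Markers of other liver cells were present as well. The summed level of 8 macrophage markers was 2141 to 2182 FPKM in DMSO, 233 to 252 FPKM in 5C, 2652 to 4188 FPKM in 5C-G, 618 to 1083 FPKM in 5C-C, 367 to 474 FPKM in 5C-E and 757 to 1029 FPKM in 5C-F, with only *Clec4f*, a Kupffer cell marker, at 0 in single libraries of 5C, 5C-E and 5C-S. Stellate cell and fibroblast markers (8 genes, 731 to 2015 FPKM) were highest in 5C-G, and cholangiocyte markers (8 genes, 1464 to 3433 FPKM, with *Cftr* at 0 in 5C-G B) in 5C-F. Most of the cholangiocyte sum was *Spp1* (mean 3089.6 FPKM in 5C-F). Means of *Spp1* and *Sox9* were highest in 5C-F, that of *Cftr* in 5C-E, and those of *Krt19*, *Krt7*, *Epcam*, *Cldn7* and *Muc1* in 5C-C. Endothelial markers (8 genes, 43.4 to 114 FPKM) were low throughout, with *Pecam1*, *Cdh5* and *Tek* at 0 in some libraries. In bulk RNA of this kind, fewer cells of a type and less RNA per cell cannot be told apart. Log2 fold changes also followed the GC content of the transcripts, with a Spearman rho across 12294 protein-coding genes, which are not independent replicates, of -0.30 for 5C against DMSO and of 0.38 to 0.55 for the 4 tested removals against 5C, and with rho up to 0.57 between the libraries of a group (5C-E).

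The members differed widely in level (figure of FPKM by library). *Cebpb* was the most abundant in every library, between 95.3 and 323 FPKM. *Cebpa*, at 11 to 39.2 FPKM, and *Hnf4a*, at 8.16 to 31.7 FPKM, came next, with *Cebpa* above *Hnf4a* in DMSO, 5C-G, 5C-F and 5C B and below it in the other libraries. The 3 *Foxa* genes lay between 0.494 and 15.7 FPKM. *Prox1* and *Nr5a2* lay between 0.599 and 5.31 FPKM, and *Onecut1* stayed under 1 FPKM, with 2 to 109 counts per library.

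**Figure D1:**
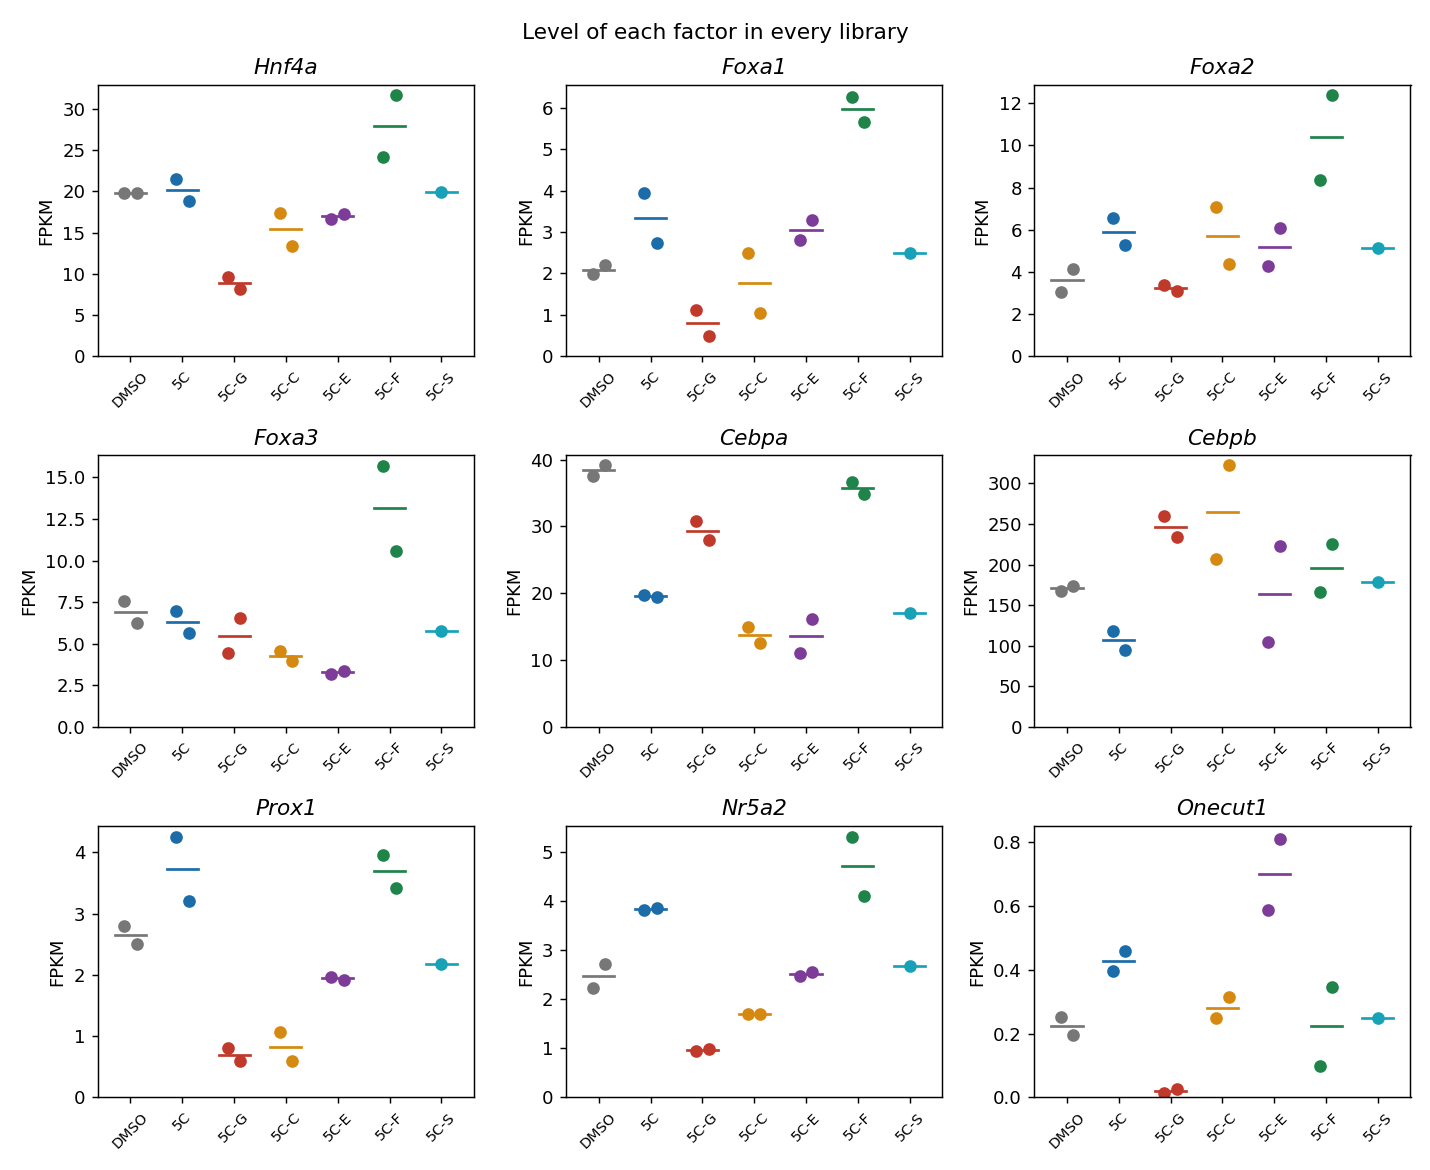
FPKM (y axis, from 0) of the 9 factors in the 7 groups (x axis), with 1 point per library and a horizontal line at the group mean. The points of 5C-G are the lowest for *Hnf4a*, *Onecut1* and *Nr5a2*, and those of 5C-F are the highest for *Hnf4a* and the 3 *Foxa* genes.

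*Hnf4a* (chr2:163348728-163414830, plus strand, ENSMUSG00000017950) was at 19.8 and 19.8 FPKM in DMSO and at 21.5 and 18.8 FPKM in 5C. It was at 9.62 and 8.16 FPKM in 5C-G, 17.4 and 13.4 FPKM in 5C-C, 16.7 and 17.3 FPKM in 5C-E, 24.1 and 31.7 FPKM in 5C-F and 19.9 FPKM in 5C-S. The 5C libraries thus lay on either side of the DMSO libraries, those of 5C-G below all the rest and those of 5C-F above all the rest. The difference between 5C and DMSO was a log2 fold change of -0.05 ± 0.17 (SE), with a 95% interval from -0.42 to 0.31. Without GSK429286A *Hnf4a* fell by 1.05 ± 0.18 on the log2 scale (edgeR adjusted p = 0.000454), and this held under every alternative (adjusted p up to 0.0123). Without forskolin it rose by 0.57 ± 0.17 (adjusted p = 0.0459). This call was lost with library totals, with limma on FPKM and with an added 2-fold threshold. It was also lost without 5C A (0.65), 5C B (0.50) or 5C-F B (0.40). Without CID755673 (-0.22 ± 0.17) and without ETC-1002 (-0.31 ± 0.17) it did not pass the test, but with the GC offset the difference without ETC-1002 was -0.53 and passed (adjusted p = 0.0274, in a range up to 0.986 over the alternatives). In the order of fitted levels, 5C-G, 5C-E, 5C-C, 5C, DMSO, 5C-F, only the first step, from 5C-G to 5C-E, passed the test (0.73, adjusted p = 0.00791, and 0.050 without 5C-E B, which no longer passed). The last step, from DMSO to 5C-F, was 0.51 ± 0.17 with an interval from 0.15 to 0.88 and libraries that did not overlap, and it missed the threshold (adjusted p = 0.0565, from 0.00120 to 0.289 over the alternatives). The steps between 5C-E, 5C-C, 5C and DMSO were 0.05 to 0.22 and did not pass.

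The 3 *Foxa* genes had different patterns. *Foxa1* (chr12:57587414-57593702, minus strand, ENSMUSG00000035451), whose promoter holds the FOXA motif shown above, was at 1.98 and 2.20 FPKM in DMSO, 3.95 and 2.74 FPKM in 5C, 1.13 and 0.494 FPKM in 5C-G, 2.50 and 1.04 FPKM in 5C-C, 2.82 and 3.30 FPKM in 5C-E, 6.26 and 5.66 FPKM in 5C-F and 2.49 FPKM in 5C-S. Both 5C libraries were above both DMSO libraries, but the difference (0.60 ± 0.36, adjusted p = 0.444) did not pass the test. Without GSK429286A *Foxa1* fell by 1.94 ± 0.38 (adjusted p = 0.00160), to 0.261-fold of its level in 5C, and the call held under every alternative. Both libraries of 5C-C were below those of 5C, and the difference did not pass the test (-0.77 ± 0.37, adjusted p = 0.115). It did without 5C-C A (-1.47, adjusted p = 0.00755, in a range up to 0.621 over the alternatives). In 5C-F both libraries were above every other library. The difference from 5C was 0.94 ± 0.36 (adjusted p = 0.105, from 0.0206 to 0.243 over the settings that kept all libraries), which did not pass. The difference from DMSO was 1.54 ± 0.37 (adjusted p = 0.00994), which did. That call was lost in a setting that kept all libraries (adjusted p = 0.0509), and without DMSO A (1.49), DMSO B (1.62) or 5C-F A (1.42).

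*Foxa2* (chr2:147884797-147889005, minus strand, ENSMUSG00000037025), whose product opens chromatin at liver enhancers, was at 3.07 and 4.16 FPKM in DMSO and at 6.54 and 5.27 FPKM in 5C. The libraries were at 3.40 and 3.08 FPKM in 5C-G, 7.06 and 4.40 FPKM in 5C-C, 4.29 and 6.10 FPKM in 5C-E, 8.38 and 12.4 FPKM in 5C-F and 5.13 FPKM in 5C-S. Those of 5C-G fell among the DMSO libraries, and those of 5C-C and 5C-E overlapped those of 5C. Against DMSO, 5C was 0.63 ± 0.28 higher (adjusted p = 0.247), which did not pass, except with the GC offset (0.84, adjusted p = 0.0420) or fitted on both groups alone (adjusted p = 0.0202; up to 0.780 with a library left out), and 5C-F was 1.54 ± 0.28 higher (adjusted p = 0.00157), which passed under every alternative. Against 5C, 5C-F was 0.91 ± 0.28 higher (adjusted p = 0.0460). This call was lost with library totals, with limma, with the GC offset and with a 2-fold threshold. It was also lost without 5C A (1.05), 5C B (0.79) or 5C-F B (0.65). The difference of 5C-G from 5C (-0.73 ± 0.28, adjusted p = 0.0668) stood just outside the threshold, and passed with DESeq2, library totals, no filter, the stricter filter or the GC offset (adjusted p from 0.00335 to 0.0865 over the settings that kept all libraries, and from 0.0929 to 0.303 with a library left out).

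*Foxa3* (chr7:18747209-18757471, minus strand, ENSMUSG00000040891), the FOXA member that is most abundant in adult liver, was at 7.58 and 6.24 FPKM in DMSO, 6.96 and 5.67 FPKM in 5C, 4.46 and 6.53 FPKM in 5C-G, 4.58 and 3.99 FPKM in 5C-C, 3.17 and 3.38 FPKM in 5C-E, 15.7 and 10.6 FPKM in 5C-F and 5.74 FPKM in 5C-S. DMSO, 5C and 5C-G overlapped, 5C-E was the lowest group and 5C-F the highest. Removal of forskolin raised it by 1.17 ± 0.28 (adjusted p = 0.0154). The call held under each setting that kept all libraries and was lost without 5C A (1.3, adjusted p = 0.0822), 5C B (1.05, adjusted p = 0.158) or 5C-F A (0.81, adjusted p = 0.122). Removal of ETC-1002 lowered the level to 3.27 ± 0.152 FPKM (SD, n = 2) from 6.32 ± 0.911 FPKM (SD, n = 2). The log2 fold change was -1.02 ± 0.28, whose adjusted p of 0.0653 missed the threshold and ran from 0.00966 to 0.116 over the settings that kept all libraries and from 0.224 to 0.426 with a library left out. Against DMSO the same group was lower by the test (-1.22 ± 0.28, adjusted p = 0.00935), but not without DMSO A (adjusted p = 0.137), 5C-E A (adjusted p = 0.106) or 5C-E B (adjusted p = 0.0733). Removal of GSK429286A left a log2 fold change of -0.05 ± 0.28, with an interval from -0.63 to 0.54, beside the fall of *Foxa1* in the same libraries.

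The sum of the 3 *Foxa* genes was 28.7 and 30.3 FPKM in 5C-F and 8.98 to 17.4 FPKM in the other 11 libraries. Within that sum the shares differed (figure of stacked FPKM). *Foxa1* made up 4.88% of it in 5C-G B and 12.6% in 5C-G A, 11% and 17.7% in 5C-C, 15.7% and 17.5% in DMSO, 20.0% and 22.6% in 5C and 25.8% and 27.5% in 5C-E. *Foxa3* made up 49.5% and 60.0% in DMSO and 26.5% and 30.8% in 5C-E, with 5C between them at 39.9% and 41.4%. *Foxa2* had its largest shares in 5C-C (46.6% and 49.9%) and 5C-E B (47.7%). Shares of this kind were described and not tested.

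**Figure D2:**
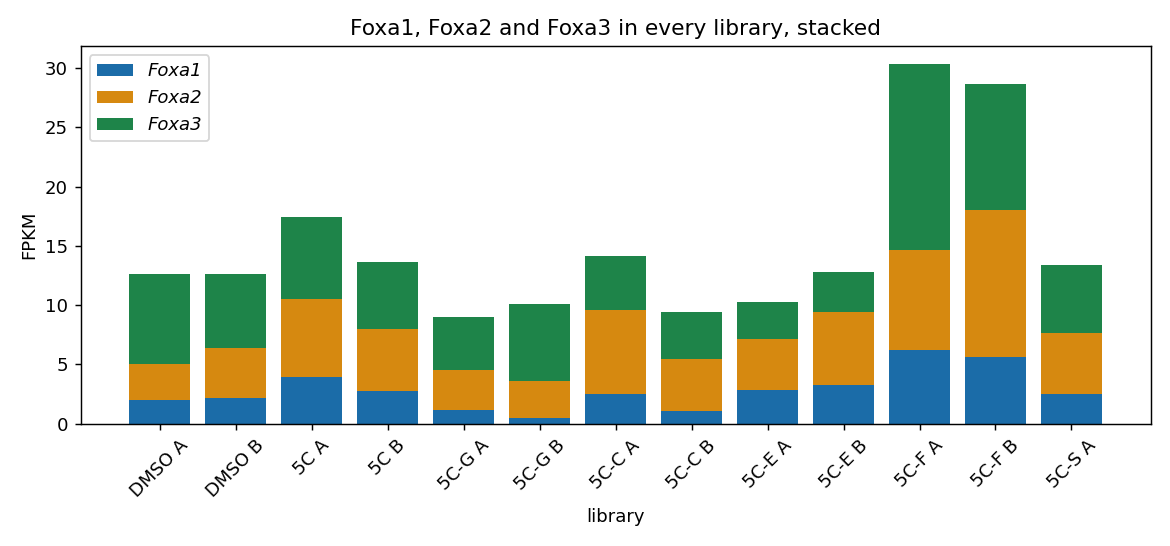
FPKM of *Foxa1*, *Foxa2* and *Foxa3* stacked in each library (x axis, y axis from 0). The 2 libraries of 5C-F reach 28.7 and 30.3 FPKM, and the *Foxa1* segment is smallest in 5C-G B.

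*Onecut1* (chr9:74769118-74800594, plus strand, ENSMUSG00000043013), the scarcest of the 9, had 38 and 25 counts in DMSO, 55 and 58 in 5C, 2 and 4 in 5C-G, 31 and 59 in 5C-C, 88 and 109 in 5C-E, 16 and 60 in 5C-F and 35 in 5C-S. Only in 5C-G did the counts nearly vanish. Summed over the group, 113 counts in 5C stood against 6 in 5C-G, a ratio per effective library size of 18.3 (exact 95% interval 8.15 to 50.9, counting error only), and edgeR gave -4.15 ± 0.79 (adjusted p = 0.00124). The call held under every alternative, though the size shrank to -0.48 on log2(FPKM + 1), which compresses genes under 1 FPKM. Both 5C libraries were above both DMSO libraries (0.86 ± 0.64, adjusted p = 0.559), and both 5C-E libraries were above both 5C libraries (0.63 ± 0.63, adjusted p = 0.712), but neither difference passed at this depth. The libraries of 5C-F lay far apart (0.10 and 0.347 FPKM), and their difference from 5C had a wide interval (-0.85 ± 0.64, from -2.20 to 0.49). *Onecut2*, its paralog, was counted as a gene of its own. It rose in 5C over DMSO (1.53 to 2.83 FPKM, 0.81 ± 0.24, adjusted p = 0.0498) and fell without GSK429286A (-2.25 ± 0.25, adjusted p = 8.99e-06).

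*Cebpa* (chr7:34818718-34821353, plus strand, ENSMUSG00000034957) was at 37.6 and 39.2 FPKM in DMSO, 19.8 and 19.5 FPKM in 5C, 30.8 and 27.9 FPKM in 5C-G, 15 and 12.6 FPKM in 5C-C, 11 and 16.1 FPKM in 5C-E, 36.6 and 34.8 FPKM in 5C-F and 17.1 FPKM in 5C-S. The level in 5C-F was thus near that of DMSO, that in 5C-G between DMSO and 5C, and those of the other removal groups at or below the 5C level. Against DMSO, 5C-G was at -0.33 ± 0.19 (adjusted p = 0.260), which did not pass, with both libraries below both of DMSO. Over the settings that kept all libraries this ran from -0.73 to -0.33 (adjusted p from 0.0168 to 0.262). 5C lowered *Cebpa* by 1.04 ± 0.19 (adjusted p = 0.00160), a fall of the gene to 0.486-fold that held under every alternative (log2 fold change from -1.06 to -0.83). It was the only one of the 9 whose difference between 5C and DMSO passed in the fit of all libraries. Without forskolin *Cebpa* rose over 5C by 0.96 ± 0.19 (adjusted p = 0.00513), a call that held under the settings that kept all libraries, except with a 2-fold threshold, and was lost without 5C A (0.95, adjusted p = 0.0684) or 5C B (0.98, adjusted p = 0.0742). Its difference from DMSO in 5C-F was -0.08 ± 0.19 (interval -0.47 to 0.31). Without GSK429286A it rose over 5C by 0.71 ± 0.19 (adjusted p = 0.0104), but only by 0.11 with the offset for GC content (adjusted p = 0.738). The call was also lost with a 2-fold threshold, and without 5C A or 5C B. Against DMSO, 5C-C (-1.39 ± 0.19, adjusted p = 4.18e-05) and 5C-E (-1.65 ± 0.19, adjusted p = 1.55e-05) were lower, each under every alternative.

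*Cebpb* (chr2:167530835-167532338, plus strand, ENSMUSG00000056501), the acute phase member whose promoter holds 3 core matches of the cAMP response element, was at 168 and 173 FPKM in DMSO and 118 and 95.3 FPKM in 5C. It was at 259.7 and 234 FPKM in 5C-G, 207 and 323 FPKM in 5C-C, 105 and 223 FPKM in 5C-E, 166 and 225 FPKM in 5C-F and 178 FPKM in 5C-S. The 5C libraries were the lowest apart from 5C-E A, which lay between them. 5C was lower than DMSO by a log2 fold change of -0.75 ± 0.28 (adjusted p = 0.144), which did not pass, except with no filter on low counts (-0.74, adjusted p = 0.00295) or fitted on both groups alone (-0.75, adjusted p = 5.13e-06), and it ran up to 0.601 with a library left out. Without CID755673 *Cebpb* rose by 1.48 ± 0.28 (adjusted p = 0.000693), without GSK429286A by 1.34 ± 0.28 (adjusted p = 0.00232) and without forskolin by 0.97 ± 0.28 (adjusted p = 0.0356). *Cebpb* has the most GC-rich transcript of the 9, at 67.15% GC against a median of 50.3% over protein-coding genes, and with an offset for GC content the 3 differences were 0.06 (adjusted p = 0.867), 0.39 (adjusted p = 0.143) and 0.34 (adjusted p = 0.267). The first 2 calls held under the other alternatives. The call for forskolin was also lost with library totals, with limma, with a 2-fold threshold, and without any of the 4 libraries compared. *Cebpb* overlaps the 5′ part of *Peds1*, a gene on the opposite strand that is called *Tmem189* in the tables and stood at 9.70 to 24.8 FPKM, and the library kit keeps no strand, so reads from the overlap cannot be told apart.

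The ratio of *Cebpb* to *Cebpa*, on the FPKM scale, was 4.41 and 4.48 in DMSO, 5.98 and 4.89 in 5C and 4.54 and 6.47 in 5C-F (figure of *Cebpb* against *Cebpa*). It was 8.42 and 8.40 in 5C-G, 13.8 and 25.7 in 5C-C, 9.57 and 13.9 in 5C-E and 10.4 in 5C-S. The 7 libraries of the removal groups other than 5C-F were all above the 6 of DMSO, 5C and 5C-F. In 5C-G both genes were above 5C, whereas in 5C-C *Cebpb* was above 5C and *Cebpa* below it. Of the other C/EBP genes, *Cebpd*, an acute phase factor, and *Ddit3* (CHOP), a factor of the integrated stress response, rose without CID755673 (1.84 ± 0.24 and 2.69 ± 0.25, adjusted p = 5.89e-05 and 2.81e-06) and without GSK429286A (0.86 ± 0.24 and 1.61 ± 0.24, adjusted p = 0.0130 and 0.000155). *Ddit3* also fell in 5C against DMSO (-0.84 ± 0.24, adjusted p = 0.0432) and rose without forskolin (1.23 ± 0.24, adjusted p = 0.00446), as did *Cebpg* (0.60 ± 0.18, adjusted p = 0.0422). Without ETC-1002 none of the 3 passed. *Cebpe*, a granulocyte factor, was too low to be tested.

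**Figure D3:**
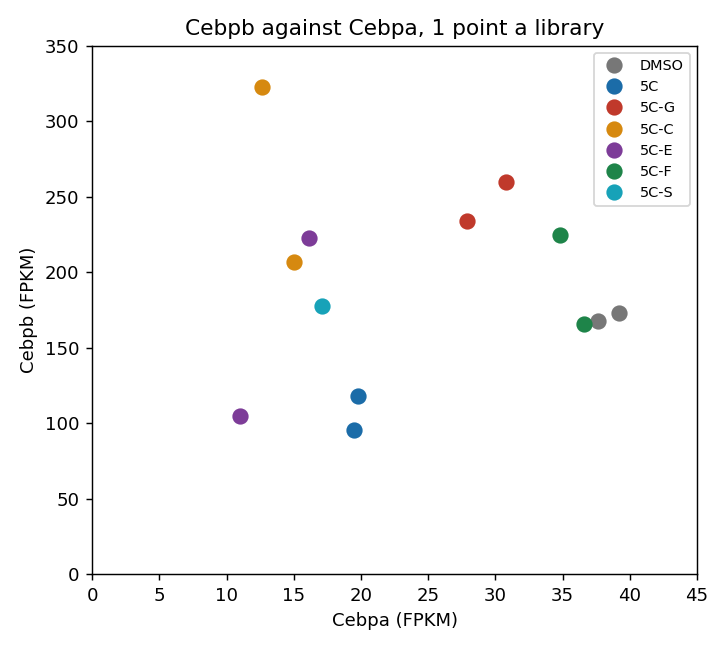
FPKM of *Cebpb* (y axis) against FPKM of *Cebpa* (x axis), 1 point per library, coloured by group. DMSO and 5C-F lie to the right at 34.8 to 39.2 FPKM of *Cebpa*, 5C at the lower middle, and 5C-C and 5C-E at the left, with 5C-C B highest at 323 FPKM of *Cebpb*.

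*Prox1* (chr1:189850232-189904637, minus strand, ENSMUSG00000010175), a homeobox factor of hepatocytes and lymphatic endothelium, was at 2.80 and 2.50 FPKM in DMSO and 4.25 and 3.20 FPKM in 5C. It was at 0.800 and 0.600 FPKM in 5C-G, 1.06 and 0.599 FPKM in 5C-C, 1.97 and 1.92 FPKM in 5C-E, 3.96 and 3.42 FPKM in 5C-F and 2.18 FPKM in 5C-S. *Prox1* fell without G, without C and without E. The log2 fold changes were -2.28 ± 0.26 without GSK429286A (adjusted p = 1.22e-05), -2.02 ± 0.26 without CID755673 (adjusted p = 4.6e-05) and -1.0 ± 0.25 without ETC-1002 (adjusted p = 0.0362). The first 2 held under every alternative, though the second shrank to -1.15 with the GC offset. With the same offset the difference from DMSO, which is given further on, shrank to -0.74 in 5C-C, and that between 5C-G and 5C-E to -0.65, and both still passed. The call without ETC-1002 was lost with library totals, with limma, and when any of 5C A, 5C B, 5C-E A or 5C-E B was left out (adjusted p from 0.104 to 0.372). 5C and DMSO differed by 0.41 ± 0.25 (adjusted p = 0.439), and 5C-F and 5C by 0.09 ± 0.25 (interval -0.43 to 0.61). In the order 5C-G, 5C-C, 5C-E, DMSO, 5C, 5C-F, the step from 5C-C to 5C-E passed (1.02, adjusted p = 0.00681), while the step from 5C-G to 5C-C did not (0.27, adjusted p = 0.578). With the GC offset that step was lost (0.15 lower in 5C-C, adjusted p = 0.673), and it was lost without 5C-C B (adjusted p = 0.101). The antisense gene *Prox1os* had 0 to 44 counts per library.

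*Nr5a2* (chr1:136770303-136888186, minus strand, ENSMUSG00000026398), a nuclear receptor of bile acid synthesis, was at 2.22 and 2.72 FPKM in DMSO, 3.81 and 3.86 FPKM in 5C, 0.954 and 0.979 FPKM in 5C-G, 1.70 and 1.70 FPKM in 5C-C, 2.48 and 2.55 FPKM in 5C-E, 5.31 and 4.10 FPKM in 5C-F and 2.68 FPKM in 5C-S. The libraries of a group agreed closely, except in 5C-F and DMSO, and the groups followed nearly the same order as for *Prox1*. Both 5C libraries were above both DMSO libraries (0.56 ± 0.22, adjusted p = 0.186), without passing the test. Without GSK429286A *Nr5a2* fell by 1.85 ± 0.23 (adjusted p = 3.27e-05), under every alternative. Without CID755673 it fell by 1.01 ± 0.23 (adjusted p = 0.00236), which held except with the GC offset (-0.37, adjusted p = 0.248). Without ETC-1002 it was at -0.68 ± 0.22 (adjusted p = 0.136) and without forskolin at 0.40 ± 0.22 (adjusted p = 0.274), and neither passed, though the former did fitted on both groups alone (adjusted p = 0.0193) or adjusted over all 15 comparisons (adjusted p = 0.0459). 5C-F was above DMSO by 0.96 ± 0.22 (adjusted p = 0.00881), though not without DMSO A (adjusted p = 0.138) or 5C-F A (adjusted p = 0.0930).

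**Figure D4:**
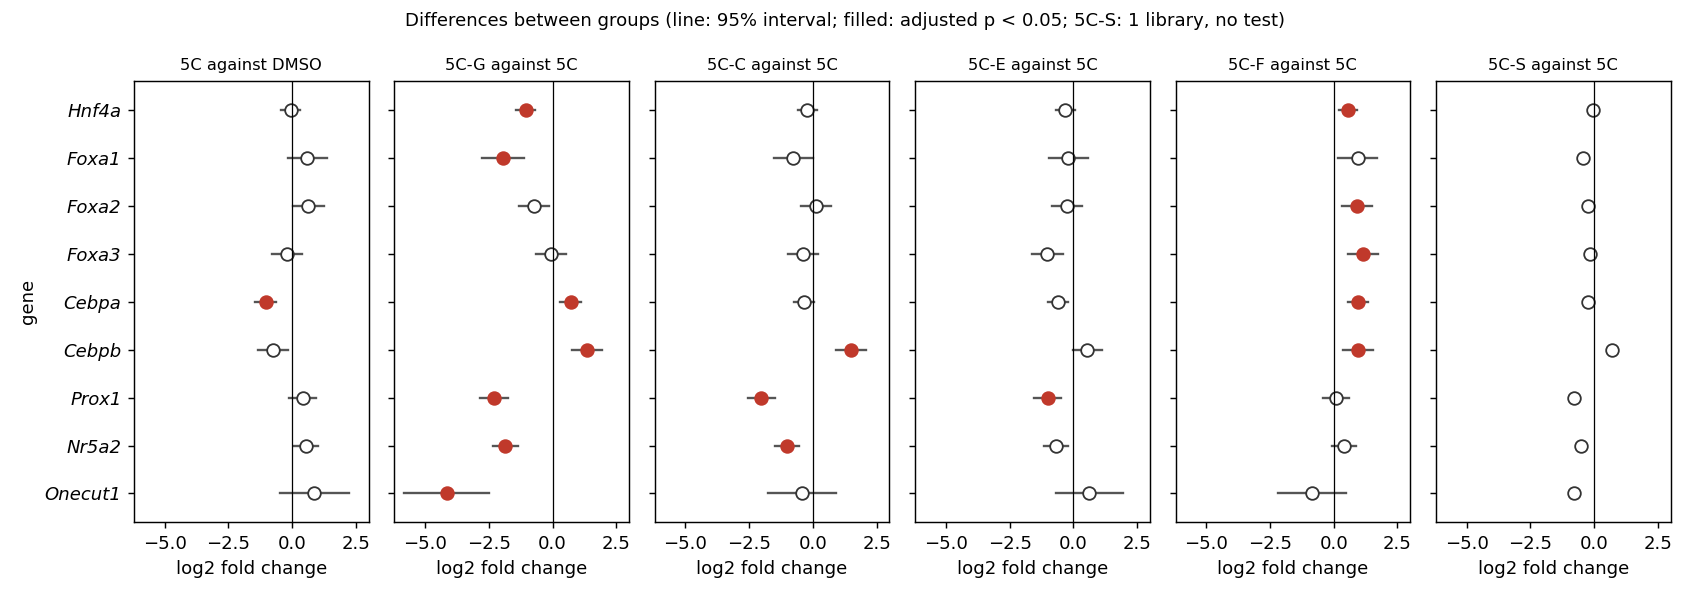
Log2 fold changes (x axis) of the 9 factors (y axis) in the 6 comparisons with 5C or DMSO, with 95% intervals as lines and filled points where the adjusted p was under 0.05. The points of *Prox1* lie below 0 for 5C-G, 5C-C and 5C-E, and those of *Cebpb* above 0 for each removal, while only 5C-F shows filled points above 0 for *Hnf4a*, *Foxa2* and *Foxa3*.

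The first comparison asks what the whole cocktail does to the factors. Of the 9, *Cebpa* fell in 5C against DMSO and 8 did not pass, beside 6.34% of all tested genes that passed in this comparison. The median log2 fold change of the 9 was 0.41, against 0.01 for all tested genes. At an unadjusted p under 0.05 there were 4 (*Foxa2* and *Nr5a2* higher, *Cebpa* and *Cebpb* lower). The share of all tested genes at that threshold is not given here, so these 4 cannot be set against a background. Fitted on the DMSO and 5C libraries alone, 6 of 9 passed (*Foxa1*, *Foxa2*, *Prox1* and *Nr5a2* higher, *Cebpa* and *Cebpb* lower), beside 30.5% of all genes in that fit. Macrophage markers moved in the same comparison, with 7 of 8 lower in 5C, and of 8 cholangiocyte markers *Epcam* (3.24 ± 0.73, adjusted p = 0.00918), *Cldn7* (2.99 ± 0.71, adjusted p = 0.0147) and *Muc1* (2.57 ± 0.59, adjusted p = 0.0106) rose, *Spp1*, which makes up most of their summed level, fell (2667 to 1679.9 FPKM) and 4 did not pass. Hepatocyte markers and stellate cell and fibroblast markers each had 1 higher and 1 lower, and 1 endothelial marker fell. Their part in the values of the 9 factors was not tested. Of 20 other liver-enriched transcription factors, 2 rose, among them *Onecut2* as given above, and 18 did not pass, with a median of 0.15. *Nr1h3* (LXRα), which had the next smallest p, was at -0.73 ± 0.23 (adjusted p = 0.0710). Of 18 textbook target genes of the 9 factors, 3 rose and 1 fell, with a median of 0.07. The acute phase gene *Orm1* rose from 22.4 to 90.6 FPKM (1.94 ± 0.26, adjusted p = 6.35e-05), *Apoc3*, an apolipoprotein gene bound by HNF4α, rose from 247 to 573 FPKM (1.14 ± 0.25, adjusted p = 0.00856), and *Tat*, the tyrosine aminotransferase gene, fell from 78.4 to 33.0 FPKM (-1.32 ± 0.19, adjusted p = 0.000176).

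The other comparisons ask how each factor changed when a single compound was left out. All of them share the 2 libraries of 5C, so a deviation of these libraries enters each. Removal of GSK429286A moved the most members: *Hnf4a*, *Foxa1*, *Prox1*, *Nr5a2* and *Onecut1* fell and *Cebpa* and *Cebpb* rose, which is 7 of 9 beside 25.6% of all tested genes, with a median of -1.05 against -0.01 for all genes. *Foxa2* and *Foxa3* did not pass. Of the 20 other liver factors 9 fell and 2 rose (median -0.60), among them *Onecut2* and *Nr1i2* (PXR), a receptor of xenobiotics (-1.32 ± 0.24, adjusted p = 0.000955). Of the 18 target genes 7 fell and 1 rose (median -0.98), led by *Apob* (42.7 to 9.40 FPKM, -2.04 ± 0.21, adjusted p = 3.61e-06), *Cps1* of the urea cycle (88.5 to 12.8 FPKM, -2.68 ± 0.32, adjusted p = 2.05e-05) and *Tat* (33.0 to 13.2 FPKM, -1.20 ± 0.19, adjusted p = 0.000313). In the same comparison 7 of 8 macrophage markers rose, 4 of 8 stellate cell and fibroblast markers rose and 3 fell, 3 of 8 hepatocyte markers fell and 2 rose, 4 of 8 cholangiocyte markers fell and 2 rose, and 2 of 8 endothelial markers rose and 2 fell. Their part in the differences of the 9 factors was not tested.

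Removal of CID755673 lowered *Prox1* and *Nr5a2* and raised *Cebpb*, which is 3 of 9 beside 35.8% of all tested genes, with a median of -0.40 against 0.00 for all genes. The members that passed changed with the GC offset, under which *Prox1* remained, *Cebpb* and *Nr5a2* were lost as given above, and *Cebpa* (-1.19, adjusted p = 0.000183, against -0.35 ± 0.19 without it) and *Foxa3* (-0.87, adjusted p = 0.0239, against -0.40 ± 0.28) passed as lower. *Cebpa* also passed with limma on log2(FPKM + 1) (-0.49, adjusted p = 0.0439) and log2(FPKM + 0.1) (-0.51, adjusted p = 0.0432), and over the other alternatives the adjusted p ran up to 0.456 for *Cebpa* and 0.643 for *Foxa3*. Of the 20 other liver factors 8 fell and 3 rose (median -0.32). *Zbtb20* (-1.56 ± 0.23, adjusted p = 0.000116), a repressor of the fetal gene *Afp*, *Gata6* (-0.98 ± 0.17, adjusted p = 0.000379) and *Onecut2* (-1.22 ± 0.24, adjusted p = 0.000902) had the smallest p. Of the 18 target genes 9 fell and 3 rose (median -1.27), led by *Apob* (-1.84 ± 0.20, adjusted p = 1.4e-05), *Apoa2* (278 to 50 FPKM, -2.30 ± 0.26, adjusted p = 1.47e-05) and *Alb* (9431 to 2993 FPKM, -1.50 ± 0.19, adjusted p = 4.6e-05). *Hnf4a* RNA was at -0.22 ± 0.17 in the same libraries, with an interval from -0.59 to 0.15. Binding of HNF4α was not measured, and the part of *Hnf4a* in the fall of these genes was not tested. Of the macrophage markers 5 rose and 1 fell, of the stellate cell and fibroblast markers 2 rose and 5 fell, and of the cholangiocyte markers 2 rose. The hepatocyte markers split into 2 higher and 2 lower, and 2 endothelial markers rose. Their part was not tested.

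Removal of ETC-1002 lowered *Prox1* alone, which is 1 of 9 beside 2.94% of all tested genes, with a median of -0.31 against 0.01. A further 3 (*Foxa3*, *Cebpa* and *Nr5a2*) were lower at an unadjusted p under 0.05, a threshold for which no share of all genes is given here. The number that passed ran from 0 to 4 over the settings. It was 0 with library totals, beside 2.90% of all genes, and 4 fitted on both groups alone, beside 13.9%. Of the 20 other liver factors *Onecut2* fell (-0.98 ± 0.24, adjusted p = 0.0321), while *Tbx3* (-1.46 ± 0.42, adjusted p = 0.0729) and *Nr1h4* (FXR, -0.75 ± 0.23, adjusted p = 0.0956) did not pass. Of the 18 target genes 9 fell and none rose, with a median of -1.43. *Alb* fell from 9431 to 2421 FPKM (-2.03 ± 0.20, adjusted p = 9.44e-06), *Apoa2* from 278 to 44.6 FPKM (-2.71 ± 0.26, adjusted p = 9.52e-06) and *Apoc3* from 573 to 114 FPKM (-2.40 ± 0.26, adjusted p = 4.01e-05), in libraries in which *Hnf4a* was at 16.7 and 17.3 FPKM against 18.8 and 21.5 FPKM in 5C, and was lower by the test only with the GC offset, as given above. The part of *Hnf4a* in these falls was not tested. The hepatocyte markers fell in 4 of 8 and none of the macrophage and cholangiocyte markers passed, while stellate cell and fibroblast markers split into 2 higher and 3 lower and 2 of 8 endothelial markers rose.

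Removal of forskolin raised *Hnf4a*, *Foxa2*, *Foxa3*, *Cebpa* and *Cebpb* and lowered none, which is 5 of 9 beside 10.7% of all tested genes, with a median of 0.91 against -0.01. Of the 9 members, 0 passed without 5C A or without 5C B, beside 2.00% and 1.56% of all genes in those fits, 3 passed without 5C-F A beside 7.01%, and 2 without 5C-F B beside 4.03%. In each of these fits the 5 genes kept their direction, with log2 fold changes between 0.40 and 1.45. Of the 20 other liver factors 5 rose and 1 fell (median 0.44). *Nr1h3* (8.32 to 19.3 FPKM, 1.31 ± 0.23, adjusted p = 0.00236), *Hhex*, a homeobox factor of liver development (9.41 to 19.4 FPKM, 1.15 ± 0.21, adjusted p = 0.00345), and *Atf5* (109 to 195 FPKM, 0.93 ± 0.19, adjusted p = 0.00594) rose. Of the 18 target genes 5 rose and none fell (median 0.52), led by *Igfbp1* (1075 to 2145 FPKM, 1.10 ± 0.19, adjusted p = 0.00248), *Ttr* (326 to 615 FPKM, 1.02 ± 0.19, adjusted p = 0.00381) and *Tat* (33.0 to 57.5 FPKM, 0.90 ± 0.19, adjusted p = 0.00800). Hepatocyte markers (4 of 8), macrophage markers (6 of 8) and cholangiocyte markers (3 of 8) rose in the same comparison with none lower, 2 of 8 stellate cell and fibroblast markers fell, and endothelial markers split into 1 higher and 1 lower. Their part was not tested.

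For Salidroside there was 1 library, so no difference has a replicate check and no p is given. None of the 9 was past 2-fold in 5C-S against the mean of 5C, beside 18.9% of all tested genes. *Hnf4a* and *Foxa3* lay between the 2 libraries of 5C. *Cebpb* lay above both (178 against 95.3 and 118 FPKM, a log2 difference of 0.72), but the difference was 0.08 with the offset for GC content, and the fold changes of 5C-S against 5C followed GC content with a rho of 0.56. The other 6 lay below both, by the most for *Onecut1* (35 counts, -0.80) and *Prox1* (2.18 against 3.20 and 4.25 FPKM, -0.79) and by the least for *Foxa2* and *Cebpa* (-0.22 each). Over the settings that kept all libraries *Prox1* ran from -0.79 to -0.42, *Cebpa* from -0.64 to -0.20 and *Foxa2* from -0.49 to -0.20. These ranges overlap, so the order is not firm. Of the other liver factors only *Onecut2* was past 2-fold lower (2.83 to 1.19 FPKM, -1.26), of the C/EBP genes none, and of the target genes only *Cyp8b1*, which is listed at 0 in 5C-S and at 0.0334 and 0.244 FPKM in 5C.

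Against DMSO, which is the culture without any compound, each removal group received the remaining 4 compounds. These comparisons share the 2 DMSO libraries. Markers of other cells moved in them too. Of 8 macrophage markers 1 was higher and 1 lower in 5C-G, while 7 were lower in every other tested removal group. Of 8 cholangiocyte markers 5 were higher in 5C-C and in 5C-F, 3 in 5C-E and 1 in 5C-G, with 1 lower in each except 5C-F. Of 8 hepatocyte markers 7 were lower and 1 higher in 5C-E, 3 lower and 1 higher in 5C-G and in 5C-C, and 1 lower and 4 higher in 5C-F. Of 8 stellate cell and fibroblast markers 4 were higher and 2 lower in 5C-G, 1 higher and 3 lower in 5C-C and in 5C-F, and 2 higher and 2 lower in 5C-E. Of 8 endothelial markers 1 was higher and 4 lower in 5C-G, 1 higher and 1 lower in 5C-C and in 5C-E, and 2 lower in 5C-F. The part of these cells in the differences of the 9 factors was not tested. In 5C-G 5 members were lower and none higher, beside 14.5% of all genes: *Hnf4a* (-1.10 ± 0.18, adjusted p = 0.00140) and *Prox1* (-1.87 ± 0.26, adjusted p = 0.000415), both under every alternative, *Nr5a2* (-1.29 ± 0.23, adjusted p = 0.00343), *Foxa1* (-1.34 ± 0.38, adjusted p = 0.0287) and *Onecut1* (-3.29 ± 0.79, adjusted p = 0.0141). For *Onecut1* the 63 counts in DMSO stood against 6, a ratio of 10.2 with an exact interval of 4.43 to 28.8. *Foxa1* and *Onecut1* did not pass with limma or fitted on both groups alone, nor without DMSO A, DMSO B or 5C-G B (adjusted p up to 0.313 and 0.149), and *Nr5a2* did not without DMSO B (adjusted p = 0.0544). Without DMSO A 3 members passed beside 1.10% of all genes, without DMSO B 2 beside 1.95% and without 5C-G B 3 beside 1.58%. In 5C-C 2 were lower (*Cebpa*, *Prox1* by 1.61 ± 0.26, adjusted p = 0.000149) and 2 higher (*Foxa2* by 0.75 ± 0.28, adjusted p = 0.0460, and *Cebpb* by 0.73 ± 0.28, adjusted p = 0.0469), beside 37.1% of all genes. The call of *Foxa2* was kept in 4 alternatives and lost in 10. That of *Cebpb* was kept in 5, lost in 8 and reversed in 1. Only the 2 falls held without DMSO A or DMSO B, beside 23.0% and 25.1% of all genes, and *Cebpb* was 0.52 lower with the GC offset (adjusted p = 0.0381, in a range from 0.0005 to 0.445 over all alternatives). In 5C-E *Cebpa* and *Foxa3* were lower, beside 8.62% of all genes, with *Cebpa* alone left without DMSO A, 5C-E A or 5C-E B, beside 4.49% to 5.54%. In 5C-F *Foxa1*, *Foxa2*, *Foxa3* (0.96 ± 0.28, adjusted p = 0.0281) and *Nr5a2* were higher and none lower, beside 14.5% of all genes. With a library left out, the log2 fold changes ran from 1.42 to 1.65 for *Foxa1* and from 1.28 to 1.77 for *Foxa2*. They ran from 0.60 to 1.25 for *Foxa3*, 0.71 to 1.17 for *Nr5a2* and 0.35 to 0.66 for *Hnf4a*. *Foxa2* kept its call in each of these fits, and *Foxa1*, *Foxa3* and *Nr5a2* lost theirs in some.

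The removals were also compared with each other, which is the direct test of whether the level of a factor differs between 2 removals. For these pairs the alternatives run were library totals, DESeq2, the GC offset, the fold threshold, adjustment over all 15 comparisons and each library left out, and neither limma, other filters nor fits of only both groups. Against 5C-F, 6 of 8 macrophage markers were higher in 5C-G, while 7 were lower in 5C-E and 4 in 5C-C, with none the other way. Of 8 hepatocyte markers 5 were lower and 1 higher in 5C-G, 7 lower and none higher in 5C-E, and 6 lower and 1 higher in 5C-C. The other marker lists moved too. Their part in the differences of the 9 factors was not tested. Between 5C-G and 5C-F 7 members were lower in 5C-G (12.5% of all genes passed), namely *Hnf4a* (-1.61 ± 0.18), the 3 *Foxa* genes (-2.88 ± 0.39, -1.64 ± 0.28 and -1.21 ± 0.28), *Prox1* (-2.38 ± 0.26), *Nr5a2* (-2.25 ± 0.24) and *Onecut1* (-3.29 ± 0.79), with adjusted p from 1.01e-05 to 0.00889. The call of *Foxa3* was lost without 5C-F A (adjusted p = 0.130) or 5C-G A (adjusted p = 0.0587), and that of *Onecut1* without 5C-F B (adjusted p = 0.0956) or 5C-G A (adjusted p = 0.0569). Between 5C-E and 5C-F 7 members were lower in 5C-E (16.8% of all genes), including *Foxa3* (-2.18 ± 0.29) and *Cebpa* (-1.57 ± 0.19) under each of these, and 4 passed without 5C-F A or without 5C-E A, beside 9.02% and 8.21% of all genes. Between 5C-C and 5C-F 6 were lower in 5C-C (19.0% of all genes), among them *Cebpa* (-1.31 ± 0.19), *Foxa3* (-1.56 ± 0.28), *Prox1* (-2.11 ± 0.26) and *Nr5a2* (-1.41 ± 0.23) under each of these, while *Hnf4a* (adjusted p = 0.0624) and *Foxa1* (adjusted p = 0.0540) did not pass without 5C-C B.

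The groups without G, C or E also differed from each other. Of 8 macrophage markers 7 were higher and none lower in 5C-G, against 5C-E as well as against 5C-C. In 5C-C against 5C-E 4 of them were higher and 1 lower. Of 8 hepatocyte markers 6 were higher and 1 lower in 5C-G against 5C-E. In 5C-C against 5C-E 6 were higher and none lower, and in 5C-G against 5C-C 1 was higher and 2 lower. The other marker lists moved too. The part of these cells in the differences of the factors was not tested. 5C-G against 5C-E had 5 members lower and 2 higher (19.6% of all genes), with *Cebpa* higher (1.32 ± 0.19, adjusted p = 0.000172) and *Prox1* (-1.28 ± 0.26), *Nr5a2* (-1.17 ± 0.23) and *Onecut1* (-4.78 ± 0.80) lower under each alternative run for these pairs. The calls of *Hnf4a* (lower), *Foxa1* (lower) and *Foxa3* (higher, 0.97 ± 0.28) were each lost when a library was left out, *Hnf4a* without 5C-E B, *Foxa1* without 5C-G B (adjusted p = 0.0796) and *Foxa3* without 5C-E A, 5C-E B or 5C-G B (adjusted p from 0.0929 to 0.330). The call of *Foxa3* was also lost with library totals (0.75, adjusted p = 0.0659) and with the GC offset (0.70, adjusted p = 0.0847), and both *Foxa3* and *Hnf4a* lay under the 2-fold threshold. 5C-G against 5C-C had 3 members lower and 1 higher (11.7% of all genes). *Cebpa* was higher (1.06 ± 0.19, adjusted p = 0.00116, under each alternative run), *Hnf4a* was lower (-0.83 ± 0.18, adjusted p = 0.00444), and *Nr5a2* (-0.84 ± 0.23) and *Onecut1* (-3.72 ± 0.79) were lower as well, the former not without 5C-C B (adjusted p = 0.0828) or 5C-G A (adjusted p = 0.138) and the latter not without 5C-G A (adjusted p = 0.0503). 5C-C against 5C-E had *Prox1* lower and *Cebpb* higher (0.93 ± 0.28, adjusted p = 0.0188), beside 28.4% of all genes, and neither passed with the GC offset or without 5C-C B, nor did *Cebpb* without 5C-E A (adjusted p = 0.264).

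Across the 13 libraries, which come in groups and are not independent, the log2 CPM (counts scaled to library size) of *Prox1* and *Nr5a2* were the most alike of the 36 pairs of members (Pearson r = 0.90), followed by *Hnf4a* with *Foxa1* and *Nr5a2* (0.89 each). *Cebpa* was most like *Foxa3* (0.77), and *Cebpb* was opposed to *Prox1* (-0.67). These values carry no offset for GC content. The transcripts of *Nr5a2* (46.05% GC) and *Prox1* (46.07%) are the least GC-rich of the members, and that of *Cebpb* (67.15%) is the most. *Onecut1*, at 47.48% GC, was less like *Prox1* (0.44). The part of GC content in these likenesses was not tested. Over all tested genes, those most like *Prox1* were *Abcc2*, the canalicular organic anion transporter gene (r = 0.989), *Tmem56* (0.985) and *Abca5* (0.977). Those most like *Hnf4a* were *Col18a1*, *Slc34a2* and *Nrk* (0.958 to 0.965), like *Foxa1* were *Sorbs2* and *Ank3* (0.985 to 0.986), and like *Foxa2* were *Arhgef16*, *Clu* and *Fam213a* (0.920 to 0.943). For *Foxa3* they were *Usp18*, *Serpina1e* and *1600014C10Rik* (0.960 to 0.964), where *Serpina1e* belongs to a family of near-identical copies and is uncertain. For *Cebpa* they were *Neurl3*, *Fkbp5* and *Bdh1* (0.958 to 0.962), and for *Cebpb* *Srsf9*, *Serf2* and *Trappc5* (0.958 to 0.970). For *Nr5a2* they were *Erbb3*, *Acacb* and *Gprc5c* (0.953 to 0.958), and for *Onecut1* *Celsr2*, *Lamc3* and *Zfp964* (0.902 to 0.928). These likenesses are descriptions over 13 libraries.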

How the data were processed

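Per the labels, RNA of 13 samples was sequenced as paired reads, and the submitters' processing notes name featureCounts, Subread, DESeq2 and the GRCm39 genome, with versions not given in the sources used here. The authors deposited raw read counts for every gene in each library, and the same libraries as FPKM values, which scale the counts by transcript length and library total.

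Counts were tested with edgeR 4.0.16 (R 4.3.3): filterByExpr by group (minimum count 10), TMM factors, and the quasi-likelihood test with all 13 libraries in 1 fit without covariates (6 residual degrees of freedom, common biological coefficient of variation 0.261). P-values were adjusted by Benjamini and Hochberg over 19884 genes, and a gene passed at an adjusted p under 0.05. Values after ± are standard errors of log2 fold changes unless marked SD. FPKM served for levels. Depth was 30195867 to 45491932 counts per library, and intervals of count ratios cover counting error only. 5C-S was described against 5C without a test.

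Alternatives were DESeq2 1.42.0, limma 3.58.1 on log2(FPKM + 1) and log2(FPKM + 0.1), library totals, other filters, only both groups, an offset for GC content and length (loess, span 0.4), a fold threshold, adjustment over 15 comparisons, and each library left out. A call with a log2 fold change within 1 did not pass the fold threshold, also where a list of lost calls leaves this out. The offset was added after seeing the data for the 6 comparisons between removals, for which limma, other filters and fits of only both groups were not run. Likeness of genes was Pearson's r of log2 CPM (prior count 2). Lists (other liver-enriched transcription factors, other C/EBP genes, textbook targets, markers of 5 cell types) are given by counts and the 3 genes with the smallest p. Some genes that these rules name are not reported here. The members and lists were chosen with earlier results of these data known. The test was tested on simulated data.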

Additional observations from a re-analysis of the deposited data

How the results depend on the processing

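Of 65 member results that passed, 29 kept call and direction under all alternatives run. Their 743 alternatives gave 613 with the same call, 129 in which it was lost and 1 reversal, and the 70 that had not passed gave 759 of 868 alternatives unchanged in call and direction, 61 that passed and 48 reversals. With no filter the number of the 9 that passed became 2 for 5C against DMSO and 2 for 5C-E against 5C. Of all genes 6.44% and 4.04% passed in those fits. With only the libraries of both groups the number of the 9 that passed became 6 for 5C against DMSO, 4 for 5C-E against 5C, 3 for 5C-G against DMSO and 5 for 5C-E against DMSO. The shares of all genes in those fits were 30.5%, 13.9%, 7.37% and 21.5%. In the main fit they were 6.34%, 2.94%, 14.5% and 8.62%. With the GC and length offset the number of the 9 that passed became 2 for 5C against DMSO, 4 for 5C-E against 5C, 3 for 5C-F against 5C and 0 for 5C-C against 5C-E. Shares of all genes are not given here for this offset, limma at FPKM + 0.1, adjustment over all 15 comparisons or the fold threshold. For left-out libraries only those stated further up are given. With library totals the number of the 9 that passed became 0 for 5C-E against 5C, 2 for 5C-F against 5C, 2 for 5C-C against DMSO and 1 for 5C-C against 5C-E. The shares of all genes there were 2.90%, 9.61%, 35.7% and 28.4%. With DESeq2 the number of the 9 that passed became 3 for 5C-E against 5C, beside 7.20% of all genes. With limma at FPKM + 1 the number of the 9 that passed became 0 for 5C-E against 5C, 2 for 5C-F against 5C, 3 for 5C-G against DMSO and 2 for 5C-C against DMSO. The shares of all genes there were 2.07%, 5.71%, 7.32% and 36.0%. With limma at FPKM + 0.1 the number of the 9 that passed became 0 for 5C-E against 5C, 2 for 5C-F against 5C, 3 for 5C-G against DMSO and 2 for 5C-C against DMSO. With adjustment over all 15 comparisons the number of the 9 that passed became 4 for 5C-E against 5C and 2 for 5C-C against DMSO. With a fold change beyond 1 on the log2 scale the number of the 9 that passed became 1 for 5C-F against 5C, 2 for 5C-C against DMSO, 2 for 5C-F against DMSO, 2 for 5C-G against 5C-C and 1 for 5C-C against 5C-E. With each library left out in turn it ran from 0 to 1 for 5C-E against 5C (main 1), from 0 to 3 for 5C-F against 5C (main 5), from 2 to 5 for 5C-G against DMSO (main 5), from 2 to 3 for 5C-C against DMSO (main 4), from 1 to 2 for 5C-E against DMSO (main 2), from 1 to 4 for 5C-F against DMSO (main 4), from 0 to 3 for 5C-C against 5C-E (main 2) and from 4 to 6 for 5C-E against 5C-F (main 7).

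Log2 fold changes that turned sign with library totals were Hnf4a 5C against DMSO (0.02), Foxa2 5C-C against 5C (-0.05), Prox1 5C-F against 5C (-0.01), Nr5a2 5C-E against DMSO (0.03) and Hnf4a 5C-C against 5C-E (-0.14). Log2 fold changes that turned sign with limma at FPKM + 1 were Hnf4a 5C against DMSO (0.02), Foxa2 5C-C against 5C (-0.06), Prox1 5C-F against 5C (-0.0038), Nr5a2 5C-E against DMSO (0.02) and Onecut1 5C-F against DMSO (-0.01). Log2 fold changes that turned sign with limma at FPKM + 0.1 were Hnf4a 5C against DMSO (0.02), Foxa2 5C-C against 5C (-0.07), Prox1 5C-F against 5C (-0.0028), Nr5a2 5C-E against DMSO (0.03) and Onecut1 5C-F against DMSO (-0.11). Log2 fold changes that turned sign with the GC and length offset were Hnf4a 5C against DMSO (0.12), Foxa2 5C-C against 5C (-0.41), Onecut1 5C-C against 5C (0.19), Cebpb 5C-G against DMSO (-0.18), Cebpb 5C-C against DMSO (-0.52), Nr5a2 5C-C against DMSO (0.19), Cebpb 5C-F against DMSO (-0.24), Cebpb 5C-G against 5C-C (0.34), Cebpa 5C-C against 5C-E (-0.15), Nr5a2 5C-C against 5C-E (0.26) and Cebpb 5C-C against 5C-F (-0.28). With each library left out in turn, the sign was not stable for Hnf4a 5C against DMSO (-0.13 to 0.03), Foxa3 5C-G against 5C (-0.46 to 0.27), Foxa2 5C-C against 5C (-0.21 to 0.39), Foxa1 5C-E against 5C (-0.39 to 0.07), Foxa2 5C-E against 5C (-0.53 to 0.01), Cebpb 5C-E against 5C (-0.09 to 1.03), Prox1 5C-F against 5C (-0.08 to 0.29), Foxa2 5C-G against DMSO (-0.34 to 0.14), Foxa3 5C-G against DMSO (-0.67 to 0.07), Foxa1 5C-C against DMSO (-0.86 to 0.32), Cebpb 5C-E against DMSO (-0.85 to 0.28), Nr5a2 5C-E against DMSO (-0.22 to 0.04), Onecut1 5C-F against DMSO (-1.08 to 0.61), Foxa3 5C-G against 5C-C (-0.06 to 0.67), Cebpb 5C-G against 5C-C (-0.52 to 0.25), Prox1 5C-G against 5C-C (-0.60 to 0.09), Hnf4a 5C-C against 5C-E (-0.09 to 0.24), Cebpa 5C-C against 5C-E (-0.00056 to 0.56), Onecut1 5C-C against 5C-F (-0.18 to 1.51), Cebpb 5C-E against 5C-F (-1.06 to 0.05) and Hnf4a 5C-S against 5C (-0.10 to 0.05). The only passed result among these reversals was Cebpb in 5C-C against DMSO with the offset. The causes were not tested. Under library totals the median log2 fold change of all genes, which lay near 0 with TMM, was -0.14 (5C-G against 5C), -0.15 (5C-C against 5C), -0.11 (5C-F against 5C), 0.16 (5C-E against DMSO), -0.20 (5C-G against 5C-E), -0.23 (5C-C against 5C-E) and 0.18 (5C-E against 5C-F). Onecut1 has no value with the filter of at least 10 counts in every library, which removes it. No paired analysis was possible because the running numbers in the column names are not the numbers in the sample titles, which are not shared between groups. In simulated counts for 5C-F against 5C over 19884 genes, 2 of 50 genes changed 1.5-fold were recovered, 21 of 50 changed 2-fold, 33 of 50 changed 3-fold and 31 of 50 changed 4-fold, with 3 false calls, with 200 genes changed in all. These shares were not computed for the other comparisons.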
